A study of Mus musculus with 53 samples.

Results

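Cartilage matrix and chondrocyte genes were followed across all 9 groups of the series. The members are 34 genes fixed by symbol, of 17097 genes named on the array, and all 34 were measured. They were covered by 57 probe sets, and 15 members had over 1. Each gene is given by its brightest probe set (highest mean over the 53 arrays) as log2 of the deposited intensity, with values under 11.7 (log2 3.55) raised to that lower limit. The arrays compare probe sets between samples only, so each level is set against the same gene in another group.

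Embryonic mesenchymal cells (eMCs) were taken from the limb soft parts of BALB/c embryos late in gestation and transduced with a retrovirus. Arrays were made 48 h later from 4 samples with pMYs-SS18-SSX1, which carries the human *SS18-SSX1* fusion gene of synovial sarcoma, and from 4 samples with the empty vector pMYs-IRES-GFP. Synovial sarcomas (SS tumors, n = 12) grew subcutaneously in nude mice that received *SS18-SSX1* eMCs, and SS214 tumors (n = 13) grew from eMCs whose vector carried *SS18-SSX1* together with *miR-214*. The SS40 and SS64 synovial sarcoma cells, cultured from such tumors, were transfected with *miR-214* or carried the label NC (n = 4 each). The labels give the second line as SS64, while the published results name a line SS60, and whether these are the same line is not stated. Both are single lines, so their arrays show no spread between tumors. A mixture of normal mouse tissues (n = 4; by the methods brain, heart, lung, liver, kidney, intestine, ovary, muscle, skin and bone marrow) holds no cartilage by that list. The methods call this mixture human, while the labels give mouse. Ages of the recipient mice are not given in the sources used here. The human transgene was not analysed here, so the labels could not be checked against it.

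Cartilage is made by chondrocytes, which surround themselves with fibrils of type II collagen, co-assembled with type XI and decorated by type IX collagen, and with aggrecan bound to hyaluronan through link protein. Transcription of these genes depends on SOX9 together with SOX5 and SOX6, which recognise short motifs of the kind ACAAAG and ACAATG. In the growth plate, Indian hedgehog and parathyroid hormone-related protein signals set the pace at which chondrocytes enlarge and begin to make type X collagen. Limb mesenchyme is the tissue that forms these cells in the embryo.

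RefSeq promoter windows (250 bases before to 50 after the annotated start, build GRCm38.p6) were found for 26 of the 34 members. The 6 shown here belong to genes that are described below with contrasting courses: the matrilin genes *Matn4*, *Matn1* and *Matn3* and *Hapln1* among the matrix-linking genes, and *Epyc* and *Col10a1*, which hold SOX-type letters. Capitals mark the SOX-type letters ACAAAG and the related ACAATG, the TATA box letters TATAAA and the GC box letters GGGCGG, each also as its reverse complement. *Matn4* and *Epyc* have a second window each, not shown. The windows are *Matn4* chr2:164404769-164405068 (minus strand), *Hapln1* chr13:89540386-89540685 (plus strand), *Matn1* chr4:130944135-130944434 (plus strand), *Matn3* chr12:8947679-8947978 (plus strand), *Epyc* chr10:97643818-97644117 (plus strand) and *Col10a1* chr10:34389731-34390030 (plus strand).
Matn4: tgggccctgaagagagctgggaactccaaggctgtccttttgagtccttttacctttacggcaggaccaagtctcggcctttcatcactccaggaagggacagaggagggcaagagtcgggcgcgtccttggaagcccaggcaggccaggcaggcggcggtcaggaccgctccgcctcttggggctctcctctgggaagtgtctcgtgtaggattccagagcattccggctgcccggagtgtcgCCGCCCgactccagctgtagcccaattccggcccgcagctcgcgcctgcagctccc
Hapln1: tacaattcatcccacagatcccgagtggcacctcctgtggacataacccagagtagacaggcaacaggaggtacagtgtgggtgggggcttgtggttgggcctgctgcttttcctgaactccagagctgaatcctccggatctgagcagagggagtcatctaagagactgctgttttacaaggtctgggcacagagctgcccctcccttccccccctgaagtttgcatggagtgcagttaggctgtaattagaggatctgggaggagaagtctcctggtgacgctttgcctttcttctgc
Matn1: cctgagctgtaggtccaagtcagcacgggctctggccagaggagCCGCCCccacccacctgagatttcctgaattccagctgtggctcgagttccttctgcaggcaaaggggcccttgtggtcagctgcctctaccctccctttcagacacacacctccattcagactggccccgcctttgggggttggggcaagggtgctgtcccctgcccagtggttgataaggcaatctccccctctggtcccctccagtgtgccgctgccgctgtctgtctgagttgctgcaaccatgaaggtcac
Matn3: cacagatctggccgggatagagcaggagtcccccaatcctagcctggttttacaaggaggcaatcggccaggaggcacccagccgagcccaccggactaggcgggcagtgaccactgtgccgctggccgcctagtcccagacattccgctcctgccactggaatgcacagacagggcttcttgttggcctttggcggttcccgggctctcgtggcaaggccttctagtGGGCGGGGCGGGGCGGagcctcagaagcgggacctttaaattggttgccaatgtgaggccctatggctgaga
Epyc: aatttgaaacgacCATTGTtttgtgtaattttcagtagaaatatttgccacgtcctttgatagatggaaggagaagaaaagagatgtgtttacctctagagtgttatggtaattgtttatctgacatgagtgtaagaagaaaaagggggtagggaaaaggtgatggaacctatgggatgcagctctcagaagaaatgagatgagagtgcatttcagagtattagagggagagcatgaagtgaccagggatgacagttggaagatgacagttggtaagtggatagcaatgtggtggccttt
Col10a1: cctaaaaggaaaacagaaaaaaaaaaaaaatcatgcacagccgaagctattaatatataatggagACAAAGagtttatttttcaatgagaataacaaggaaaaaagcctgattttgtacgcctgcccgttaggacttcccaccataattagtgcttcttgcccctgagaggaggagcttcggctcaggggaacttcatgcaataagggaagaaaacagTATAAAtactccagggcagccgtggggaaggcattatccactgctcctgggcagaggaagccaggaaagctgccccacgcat

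On either strand, ACAAAG or ACAATG stood in a window of 4 of the 26 members, beside 26.1% of the 12570 protein-coding array genes with a window. The letters of the TATA box, TATAAA, stood in 4 of 26 members, beside 11.7% of genes, and those of the GC box, GGGCGG, in 19 of 26, beside 59.2%. *Hapln1* held none of these letters. A match describes the letters of these windows only.

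Without the fusion gene, eMCs carried a cartilage programme. Against the tissue mix, 32 of 34 members were higher in empty-vector eMCs and none was lower, by a median of 4.88 on the log2 scale. Over all genes tested in this comparison, 10.7% were higher and 17.3% lower. The median of all probe sets was itself 0.14 higher in eMCs. A member was called where limma's adjusted p was under 0.05 and the difference over 2-fold. *Col2a1*, the main fibrillar collagen of cartilage, had log2 intensities of 13.01, 13.07, 13.04 and 13.04 in empty-vector eMCs, against 3.95, 4.18, 4.27 and 4.21 in the mix. *Acan*, which encodes aggrecan, averaged 10.67 in empty-vector eMCs and 3.63 in the mix, and *Col9a1*, a chain of collagen IX, averaged 12.64 and 5.54 in the same order. The exceptions were *Pth1r*, the receptor of parathyroid hormone-related protein, with 8.89 in eMCs and 8.83 in the mix, and *Ihh*, which encodes Indian hedgehog, with 4.55 and 4.26. Kidney, a known site of *Pth1r* expression, was among the mixed tissues. *Ihh* lay between 4.18 and 4.55 in every group mean. *Trps1* was higher in eMCs than in the mix at its brightest probe set (2.21), while a dimmer one was lower (-0.57). The cultures were not purified chondrocytes: 11 fibroblast genes averaged 9.54 in empty-vector eMCs and 8.70 in the mix.

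At 48 h, *SS18-SSX1* eMCs had lower levels of most of these genes than empty-vector eMCs. Over 2-fold, 23 of 34 members fell and none rose, where 0.92% of all 15324 genes tested were lower and 2.73% higher. Without a fold limit, 33 fell and 1 rose by the adjusted p (19.5% lower and 29.4% higher over all genes), and the 4 arrays of each group did not overlap for the same numbers of members (18.5% and 28% over all genes). The median change was -1.22 over the members and 0.00 over all genes. Fewer cells of a type and less RNA per cell cannot be told apart in bulk arrays.

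**Figure D1:**
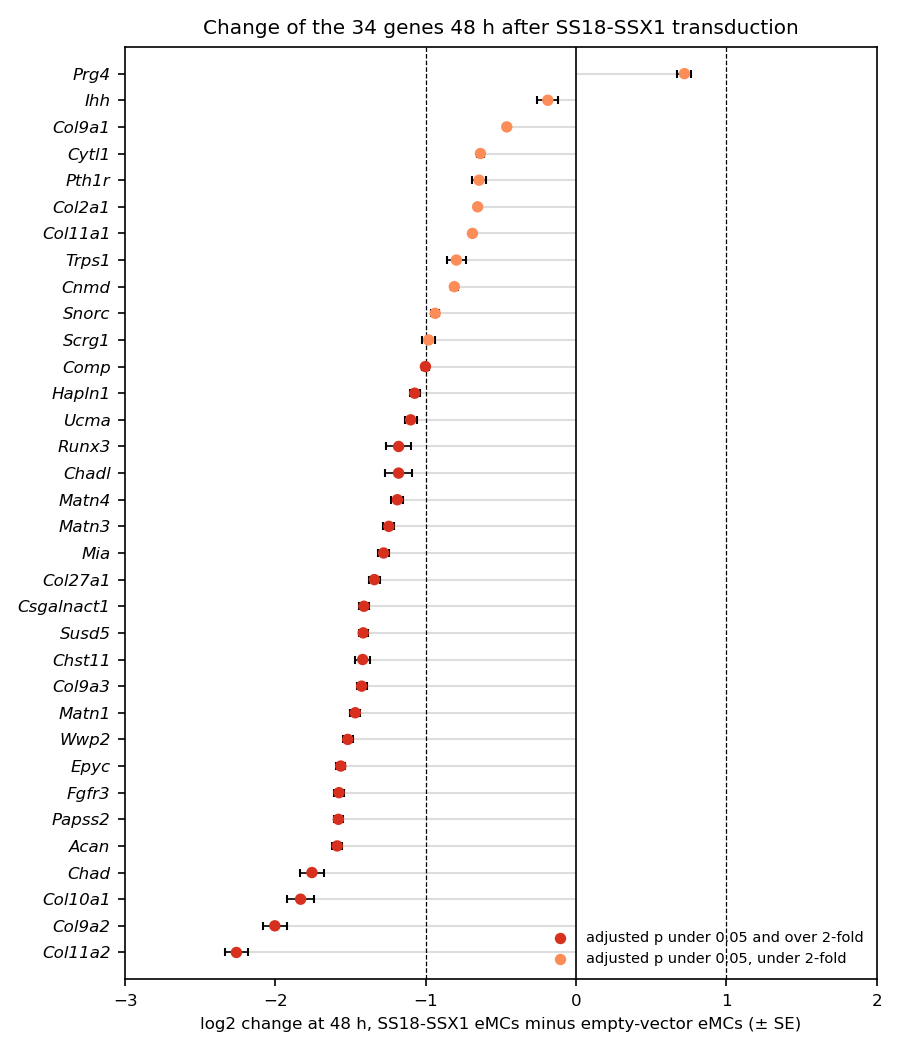
Log2 change of each of the 34 genes at 48 h (x axis, *SS18-SSX1* eMCs minus empty-vector eMCs, limma estimate ± SE, n = 4 arrays each); dashed lines mark a 2-fold change and red points are called. All points but *Prg4* lie left of 0, with *Col11a2* at -2.26 the lowest and *Prg4* at 0.72 the highest.

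Among the collagens, the chains that build the same fibre did not move by the same amount at their brightest probe sets. *Col11a2* had 6.60, 6.68, 6.41 and 6.88 in *SS18-SSX1* eMCs, against 8.92, 8.96, 8.88 and 8.85 in empty-vector eMCs, a change of -2.26 (SE 0.07, limma adjusted p = 2.18e-12). All 4 *SS18-SSX1* arrays lay below every empty-vector array. *Col9a2* was 4.01-fold lower. *Col10a1*, the collagen of hypertrophic chondrocytes, changed by -1.83, *Col9a3* by -1.43 and *Col27a1*, another fibrillar collagen of cartilage, by -1.34. *Col2a1* had 12.41, 12.34, 12.38 and 12.41 in *SS18-SSX1* eMCs, against 13.01 to 13.07 in empty-vector eMCs, a change of -0.66 (SE 0.02), which is under 2-fold. *Col11a1* (-0.69) and *Col9a1* (-0.46) also fell by less than 2-fold. The second, dimmer probe set of *Col9a1* changed by -1.39 and that of *Col11a1* by -1.15. That of *Col9a3* changed by -0.95, under 2-fold, so the order of *Col9a1* and *Col9a3* depended on the probe set. The 7 members that were brightest in empty-vector eMCs had a median change of -0.69, beside -1.41 for the other 27, and the part of the upper end of the array's range in this was not tested.

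The aggrecan network and its linkers fell as well. *Acan* had 8.99, 9.06, 9.16 and 9.12 in *SS18-SSX1* eMCs and 10.66 to 10.70 in empty-vector eMCs (-1.59, SE 0.03). *Hapln1*, the link protein that holds aggrecan on hyaluronan, changed by -1.07. *Epyc* and *Chad*, which encode the small leucine-rich proteins epiphycan and chondroadherin, changed by -1.57 and -1.76, and their relative *Chadl* by -1.18. *Snorc*, a transmembrane proteoglycan of chondrocytes, changed by -0.94, just under 2-fold. The matrilins, which bridge collagen fibrils and proteoglycans, moved together, *Matn1* by -1.47, *Matn3* by -1.25 and *Matn4* by -1.19. *Comp*, cartilage oligomeric matrix protein, lay at the edge of the 2-fold limit and lost its call in a single fit of all arrays (adjusted p = 0.06) and without 1 of 3 arrays, *SS18-SSX1* replicate 3 or empty-vector replicate 1 or 3. *Scrg1* at -0.98 lay just outside the limit.

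*Prg4* was the exception. It encodes lubricin, the lubricant of the joint surface, and had 8.69, 8.72, 8.67 and 8.72 in *SS18-SSX1* eMCs, against 7.97, 8.09, 8.01 and 7.85 in empty-vector eMCs. The rise of 0.72 (SE 0.05, limma adjusted p = 4.98e-09) was under 2-fold, and the groups did not overlap.

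Secreted cartilage proteins, receptors and enzymes followed the matrix. *Mia* changed by -1.28 and *Ucma*, a secreted protein of immature chondrocytes, by -1.10, while *Cnmd*, the anti-angiogenic chondromodulin, changed by -0.81 and *Cytl1* by -0.64. *Susd5* changed by -1.42. *Fgfr3*, the receptor that restrains growth plate chondrocytes, had 8.42, 8.54, 8.44 and 8.52 in *SS18-SSX1* eMCs, against 10.01 to 10.08 in empty-vector eMCs (-1.58), and *Pth1r* changed by -0.65. The 3 enzymes of chondroitin sulfate were lower over 2-fold, namely *Papss2*, which makes the sulfate donor (-1.58), *Chst11*, a chondroitin 4-sulfotransferase (-1.42), and *Csgalnact1*, which starts the chondroitin chain (-1.41). Of 14 other genes of that pathway, 1 was lower and none higher, *Slc35d1*, a nucleotide sugar transporter (-1.36). Among the nuclear factors, *Wwp2*, a ubiquitin ligase gene, changed by -1.52, *Runx3*, a runt factor of chondrocyte maturation, by -1.18 and *Trps1*, a GATA-type repressor, by -0.80. A second probe set of *Runx3* changed by -0.15, and the mean over its probe sets (-0.67) was under 2-fold. With the mean over probe sets for every gene, 18 members were called, and *Chst11* (-0.99), *Hapln1* (-0.94), *Matn3* (-0.93) and *Wwp2* (-0.86) also fell short of 2-fold.

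Of 16 chondrogenic regulators outside the list, 4 were lower and none higher. They were *Foxa3* (-1.81), *Sox9* (-1.75), *Foxa2* (-1.41) and *Sox5* (-1.37). *Sox9* averaged 7.85 ± 0.12 in *SS18-SSX1* eMCs and 9.60 ± 0.11 in empty-vector eMCs (SD, n = 4 each). *Sox6*, at 7.18 ± 0.06 in *SS18-SSX1* eMCs and 8.15 ± 0.01 in empty-vector eMCs, missed the 2-fold limit. Of 12 genes for matrix proteases and their inhibitors, 3 were higher and none lower, namely the aggrecanase genes *Adamts4* (2.23) and *Adamts5* (1.06) and the gelatinase gene *Mmp9* (2.03).

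Markers of other cells also differed between these cultures. Endothelial genes averaged 6.26 to 6.34 over the 10-gene list in *SS18-SSX1* eMCs, against 4.51 to 4.60 in empty-vector eMCs, and 7 of 10 were higher, with *Emcn*, *Cldn5* and *Cdh5* above 2.5 on the log2 scale. Of 7 tendon genes, 3 were higher, *Kera* (2.29), *Tnmd* (1.54) and *Thbs4* (1.28). Of 7 osteoblast genes, 2 were lower, *Dmp1* (-2.07) and *Smpd3* (-1.55). None of 11 fibroblast genes was called (median -0.03). Skeletal muscle genes averaged 6.18 to 6.22 over the 12-gene list in *SS18-SSX1* eMCs, against 5.15 to 5.25 in empty-vector eMCs, and 3 of 12 were higher, *Tnnc2* (2.95), *Mylpf* (2.52) and *Acta1* (2.17). The 3′ over 5′ signal of *Gapdh*, which tracks RNA integrity, was -0.17 to -0.12 in *SS18-SSX1* eMCs and -0.02 to 0.06 in empty-vector eMCs on the log2 scale. Their part in the cartilage changes was not tested. Replicates of these groups had small spreads (median SD over probe sets of 0.07 and 0.10), and nothing in the sources says that they were separate cultures, so their p-values may rest on technical spread alone.

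In SS tumors the cartilage programme was reduced far more and very unevenly. Against empty-vector eMCs, 30 of 34 members were lower over 2-fold and none higher, where 8.7% of all genes were lower and 14.5% higher. The median difference was -4.76, beside -0.03 over all genes, and 31 members did not overlap with the eMC arrays and lay below them (23.4% over all genes). Against *SS18-SSX1* eMCs at 48 h, 27 members were lower and 1 higher (9.94% and 12.8% over all genes), with a median of -3.29. The higher one was *Matn4*, and without SS tumor 5 *Runx3* passed as well. The comparisons of tumors and lines with empty-vector eMCs share those 4 arrays.

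**Figure D2:**
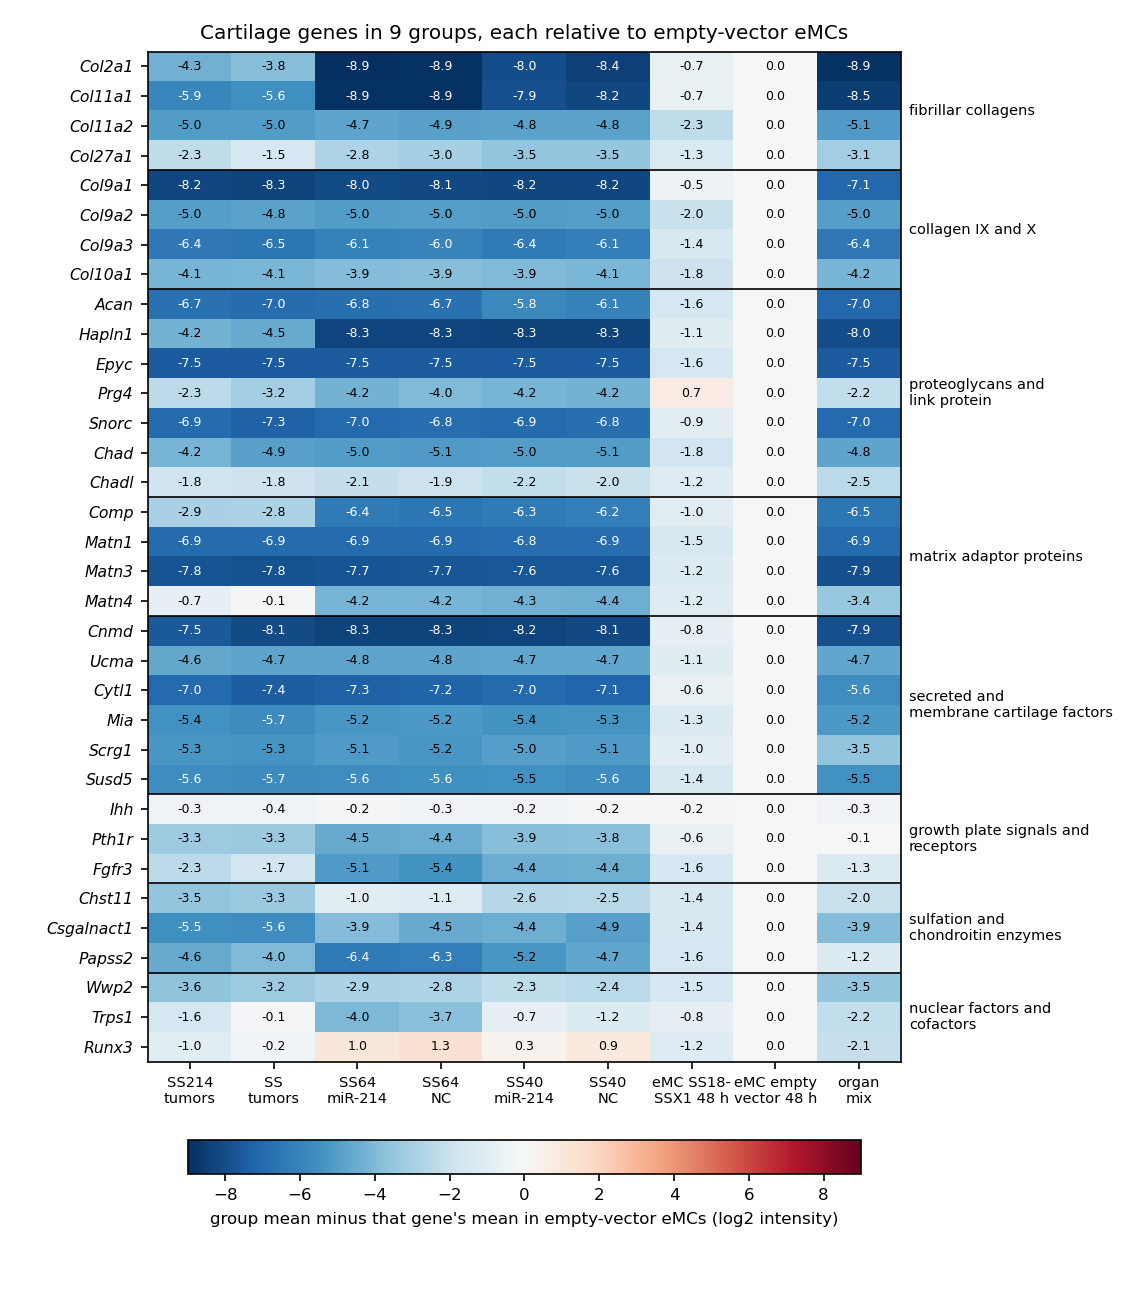
Mean log2 intensity of each of the 34 genes (rows, grouped by role) in the 9 groups (columns), minus that gene's mean in empty-vector eMCs; blue is lower and red higher. The *SS18-SSX1* eMC column is pale, the tumor and line columns are dark for most genes, and *Matn4*, *Trps1* and *Runx3* stay pale in SS tumors (-0.1, -0.1 and -0.2).

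*Col2a1* fell to a median of 9.15 in SS tumors (lowest 8.71, highest 10.02), against 13.01 to 13.07 in empty-vector eMCs (-3.80, SE 0.15, limma adjusted p = 4.29e-13). *Col11a1* ranged more widely, with 5.66 to 8.09 in SS tumors and 12.43 to 12.47 in empty-vector eMCs (-5.55, SE 0.36). *Col27a1* differed by -1.50 and *Col11a2* by -5.05. Collagen IX genes were low in SS tumors, with *Col9a2* closest to the lower limit at 3.56 to 4.04. *Col9a1* had a lowest value of 4.22, a median of 4.32 and a highest value of 4.54 in SS tumors, against 12.63 to 12.66 in empty-vector eMCs (-8.32, SE 0.08), and its second probe set differed by -5.72. *Col9a2* (-4.79), *Col9a3* (-6.47) and *Col10a1* (-4.14) were also lower, and no tumor reached any eMC array for these genes.

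Both aggrecan and the link protein were lower in SS tumors. *Acan* ran between 3.56 and 3.90 in SS tumors, against 10.66 to 10.70 in empty-vector eMCs (-6.96, SE 0.09), which is close to the lower limit, so that a further fall could not be measured. *Hapln1* ran between 6.99 and 8.47 in SS tumors, against 11.86 to 12.05 in empty-vector eMCs (-4.50, SE 0.21), and its other probe set differed by -6.26. *Epyc* was at the lower limit in all 12 SS tumors and thus at least 176-fold lower than in empty-vector eMCs. *Snorc* differed by -7.30, *Chad* by -4.86, *Prg4* by -3.15 and *Chadl* by -1.83. *Prg4* was 7.38 in SS tumor 28 and between 3.82 and 5.21 in the other tumors, against 7.85 to 8.09 in empty-vector eMCs.

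The adaptor proteins held the clearest contrast within one gene family. *Matn1* was at the lower limit in every SS tumor, at least 121-fold lower than in empty-vector eMCs, and *Matn3* had a median of 3.89 in SS tumors, against 11.73 to 11.75 in empty-vector eMCs (-7.81). *Matn4* had a lowest value of 7.53, a median of 9.52 and a highest value of 10.13 in SS tumors, against 9.36 to 9.50 in empty-vector eMCs. The difference was -0.10 (SE 0.33, adjusted p = 0.80), and the tumors lay on both sides of the eMC arrays. Against *SS18-SSX1* eMCs, whose 4 values were 8.21 to 8.33, *Matn4* was higher in SS tumors by 1.09 (SE 0.33, adjusted p = 0.0091). *Comp* had a median of 7.64 in SS tumors and 10.63 to 10.71 in empty-vector eMCs (-2.83). The promoter windows of *Matn1*, *Matn3* and the *Matn4* window shown above each held GGGCGG or its reverse complement, beside 59.2% of genes with a window. The second *Matn4* window held none of the marked letters.

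**Figure D3:**
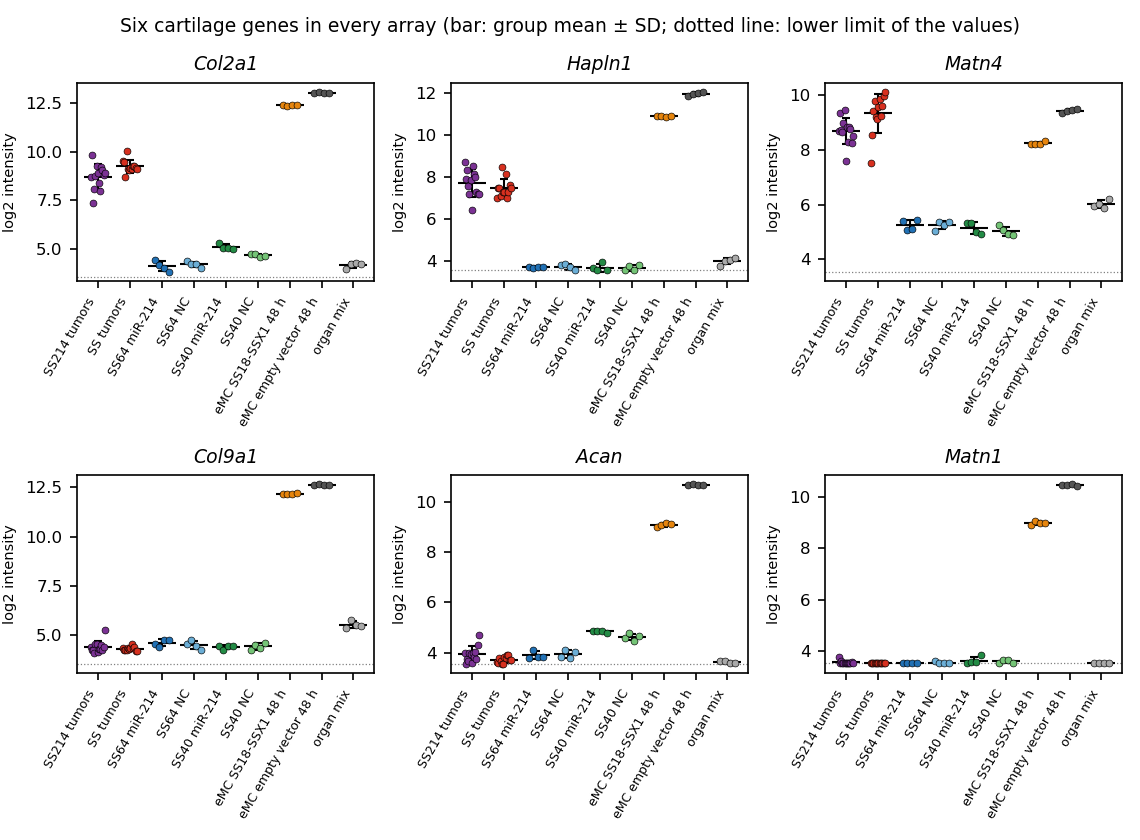
Log2 intensity of 6 genes (y axes, each with its own range) in every array of the 9 groups; points are arrays, bars the group mean ± SD and the dotted line the lower limit of 3.55. *Col2a1*, *Hapln1* and *Matn4* stay well above the limit in both tumor groups and are low in the lines, while *Col9a1*, *Acan* and *Matn1* are low in tumors and lines alike.

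Secreted factors and growth plate genes were mostly low in tumors. *Cnmd* (-8.07), *Cytl1* (-7.42), *Susd5* (-5.68), *Mia* (-5.67), *Scrg1* (-5.30) and *Ucma* (-4.73) were all lower in SS tumors than in empty-vector eMCs. *Cnmd* reached 4.97 and 4.79 in SS tumors 33 and 30 and was at 4.15 or below in the other 10. *Pth1r* differed by -3.32. *Fgfr3* had a lowest value of 7.45, a median of 8.33 and a highest value of 9.20 in SS tumors, against 10.01 to 10.08 in empty-vector eMCs (-1.67), and its difference from *SS18-SSX1* eMCs was -0.09 (SE 0.27, adjusted p = 0.79). The enzymes *Csgalnact1* (-5.56), *Papss2* (-3.97) and *Chst11* (-3.34) were lower.

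*Trps1*, *Runx3* and *Ihh* were the other members that did not pass the 2-fold call. *Ihh* differed by -0.36. *Trps1* averaged 8.94 ± 0.49 in SS tumors (SD, n = 12) and 9.06 ± 0.09 in empty-vector eMCs (SD, n = 4), a difference of -0.12 (SE 0.23, adjusted p = 0.66). Another probe set of *Trps1* was 2.29 higher in SS tumors. *Runx3* averaged 6.31 ± 0.66 in SS tumors and 6.52 ± 0.12 in empty-vector eMCs (-0.22, SE 0.31, adjusted p = 0.55), with 4.81 in tumor 5 and 7.62 in tumor 30 as its extremes. Against *SS18-SSX1* eMCs, *Runx3* (0.96, adjusted p = 0.013) and *Trps1* (0.68, adjusted p = 0.019) were higher in SS tumors at their brightest probe sets, by less than 2-fold (31% of all genes were higher at any fold). The second probe set of *Runx3* differed by -0.17 in that comparison and did not pass. Dimmer probe sets of *Trps1* differed by 0.36, 0.64 and 2.45, and only the last passed. *Wwp2* was lower at the brightest of its probe sets (-3.24), and 4 dimmer ones that passed the filter on low values differed by -0.38 to -2.12. Against *SS18-SSX1* eMCs the brightest was 1.72 lower (-1.72) and 1 other was 0.31 higher. The regulators *Sox9* and *Sox5* were lower in SS tumors (-3.66 and -3.19), whereas *Sox6* averaged 7.88 ± 0.20 in SS tumors and 8.15 ± 0.01 in empty-vector eMCs. Of the 16 regulators, 6 were lower and 7 higher, among the higher ones the hedgehog targets *Gli1* (4.50) and *Ptch1* (2.22). Of 12 protease and inhibitor genes, 8 were lower and none higher, among them the collagenase gene *Mmp13* (-7.95) and *Mmp3* (-6.11).

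SS tumors held other tissue and RNA of another quality than the cultures. The mean of 12 skeletal muscle genes was 9.92 to 12.2 in SS tumors, against 5.15 to 5.25 in empty-vector eMCs and 12.0 to 12.1 in the mix. All 12 muscle genes and 8 of 10 endothelial genes were higher in SS tumors than in empty-vector eMCs. For *Gapdh*, a measure of RNA integrity on the arrays, the 3′ signal over the 5′ signal on the log2 scale was 0.33 to 1.43 in SS tumors and -0.02 to 0.06 in empty-vector eMCs. With this ratio as a covariate, 30 members were lower over 2-fold. The ratio did not overlap between these groups, so this fit cannot separate RNA quality from group. The part of host tissue or of RNA quality in the tumor levels was not tested. SS tumor 5 had the lowest value for 12 of 32 members, and without it 30 members were lower than in empty-vector eMCs.

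Against the tissue mix, the members split. In SS tumors 8 were higher and 7 lower of 32 tested, where 11.3% of all genes were higher and 13.8% lower. The higher ones were *Col2a1* (5.08), *Comp* (3.70), *Hapln1* (3.48), *Matn4* (3.32), *Col11a1* (2.96), *Trps1* (2.10), *Runx3* (1.84) and *Col27a1* (1.62). *Col2a1* was at 8.71 to 10.02 in SS tumors and 3.95 to 4.27 in the mix, where it was low on the scale of the array (SE of the log2 difference 0.16). *Comp* was at 7.07 to 8.95 in SS tumors and 4.08 to 4.20 in the mix. The lower ones were *Pth1r* (-3.26), *Papss2* (-2.75), *Cytl1* (-1.86), *Scrg1* (-1.76), *Csgalnact1* (-1.65), *Chst11* (-1.31) and *Col9a1* (-1.22). The other probe set of *Chst11* went the opposite way (0.17, limma adjusted p = 0.0081). Other probe sets moved less or not at all, with -0.06 for *Runx3*, 1.30 for *Hapln1* and -0.24 for *Col9a1*. *Acan* (0.09, adjusted p = 0.26), *Matn3* (0.08) and *Col11a2* (0.08) did not pass the test, with both groups near the lower limit. *Epyc* and *Matn1* were not tested, since both groups were at the limit.

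Tumors that also carried *miR-214* differed over 2-fold from SS tumors in a single cartilage gene. Between SS214 and SS tumors 1 of 32 members was lower over 2-fold and none higher (1.06% and 0.946% over all genes). Without a fold limit, 8 were lower and 3 higher by the adjusted p (17.3% and 22.6% over all genes). No member separated the groups without overlap, as 0.524% of all genes did with lower and 0.742% with higher levels.

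*Trps1* was the member past 2-fold. It had a lowest value of 6.15, a median of 7.28 and a highest value of 8.51 in SS214 tumors, against 8.15, 9.07 and 9.61 in SS tumors. The difference was -1.48 (SE 0.24, limma adjusted p = 3.44e-05), and the groups overlapped between 8.15 and 8.51. Its other 3 probe sets differed by -1.23, -1.38 and -2.42. The call was kept without SS214 tumor 16 (-1.46) and without the 6 SS214 tumors highest in lung genes (-1.65).

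*Runx3* (-0.76), *Col27a1* (-0.79), *Fgfr3* (-0.66), *Matn4* (-0.64), *Col2a1* (-0.53), *Wwp2* (-0.39) and *Col9a2* (-0.18) were lower in SS214 tumors by the adjusted p but by less than 2-fold. *Fgfr3* had a median of 7.71 in SS214 tumors and 8.33 in SS tumors, and its second probe set differed by 0.06. The second probe set of *Runx3* differed by 0.20 (adjusted p = 0.056), opposite to the first. *Col2a1* had 7.37 to 9.83 in SS214 tumors and 8.71 to 10.02 in SS tumors. Without the 6 SS214 tumors highest in lung genes, *Fgfr3* (adjusted p = 0.058) and *Col2a1* (adjusted p = 0.12) no longer passed.

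*Chad* (0.69), *Cytl1* (0.42) and *Snorc* (0.36) were higher. Dimmer probe sets of *Hapln1* (0.79), *Csgalnact1* (0.33) and *Papss2* (0.26) were also higher by the adjusted p. The brightest probe sets of these genes did not pass (0.26, 0.06 and -0.58 in the same order). *Chad* had a lowest value of 4.08, a median of 5.23 and a highest value of 6.84 in SS214 tumors, against 4.02, 4.69 and 5.17 in SS tumors. The highest *Chad*, *Cytl1* and *Snorc* values all came from SS214 tumor 16, which was the highest SS214 tumor for 10 of 32 members, while SS214 tumor 3 was the lowest for 10. *Cytl1* differed by 0.29 without that tumor and lost its call without SS tumor 5 (adjusted p = 0.075).

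**Figure D4:**
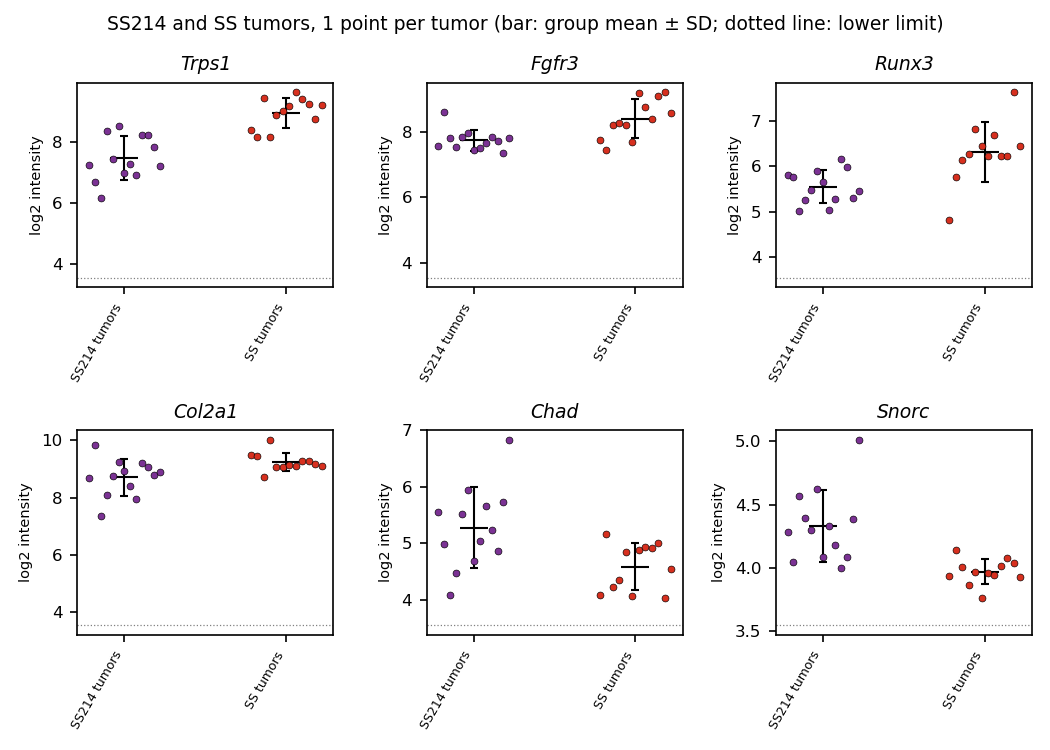
Log2 intensity of 6 genes (y axes, each with its own range) in each SS214 tumor (n = 13) and SS tumor (n = 12); points are tumors, bars the group mean ± SD and the dotted line, where it falls in the range, the lower limit. *Trps1* is shifted down in SS214 tumors with a short overlap, and 1 tumor stands at the top of *Chad* (6.84) and *Snorc* (5.01).

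Markers of other tissues and RNA quality differed between these tumor groups. Of 10 macrophage genes 3 were higher in SS214 tumors, *Fcgr3* (1.37), *Lyz2* (1.31) and *C1qb* (1.12), and the list mean was 6.48 to 8.74 in SS214 tumors and 5.89 to 8.73 in SS tumors. Of 7 osteoblast genes 2 were higher, *Bglap* (1.74) and *Ibsp* (1.19), of 7 tendon genes 1, *Tnmd* (1.35), of 12 protease and inhibitor genes 2, *Mmp13* (2.87) and *Mmp3* (1.14), and of 6 lung genes 2, *Sftpc* (3.32) and *Sftpa1* (1.57). Of 16 chondrogenic regulators 1 was lower, *Zbtb20* (-2.05). The mean of 6 lung genes was 3.81 to 8.10 in SS214 tumors and 3.63 to 4.36 in SS tumors, and tumor 16 had the value of 8.10. The *Gapdh* 3′ to 5′ ratio was -0.04 to 0.48 in SS214 tumors and 0.33 to 1.43 in SS tumors. With that ratio as a covariate 2 members were lower over 2-fold, *Trps1* and *Fgfr3* (-1.11, adjusted p = 0.034), and *Chad* (adjusted p = 0.44), *Cytl1* (adjusted p = 0.39) and *Col2a1* (adjusted p = 0.28) did not pass. Only SS214 tumor 9 (0.48) had a ratio within the range of SS tumors, so this fit cannot separate RNA quality from group. The part of these tissues or of RNA quality in these values was not tested.

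In the tumor lines *Col2a1*, *Hapln1*, *Comp* and *Matn4* lay below their levels in SS tumors, whereas some others, such as *Runx3* and *Chst11*, did not. Against empty-vector eMCs, 32 of 34 members were lower over 2-fold and none higher in SS40 NC cells (8.54% and 8.69% over all genes), with a median of -5.01. A dimmer probe set of *Trps1* was higher in SS40 NC cells (0.31), against -1.22 at the brightest. In SS64 NC cells 32 were lower and 1 higher (8.64% and 7.45% over all genes), with a median of -5.19. *Col2a1* had 4.70, 4.72, 4.58 and 4.61 in SS40 NC cells and 4.34, 4.19, 4.21 and 3.98 in SS64 NC cells, against 13.01 to 13.07 in empty-vector eMCs. *Hapln1* averaged 3.66 in SS40 NC cells and 3.72 in SS64 NC cells, *Comp* 4.51 and 4.14, and *Matn4* 5.03 and 5.26 in the same order. All of these lay below every SS tumor. Lines and SS tumors were not compared in a fit, and the share of all genes with such a separation was not counted. Cultured lines held no skeletal muscle signal, with a list mean of 4.40 to 4.60 in SS40 NC cells and 4.42 to 4.59 in SS64 NC cells, against 9.92 to 12.2 in SS tumors.

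*Runx3* stood above its eMC level in both lines. It had 7.96, 7.86, 7.88 and 7.74 in SS64 NC cells and 7.66, 7.28, 7.44 and 7.25 in SS40 NC cells, against 6.36 to 6.64 in empty-vector eMCs. The difference was 1.34 in SS64 NC cells (SE 0.07) and 0.89 in SS40 NC cells (SE 0.10), and the second probe set differed by 0.00 and -0.13. The mean over both probe sets (0.67) was under 2-fold in SS64 NC cells. *Chst11* was lower than in empty-vector eMCs by 1.13 in SS64 NC cells and by 2.53 in SS40 NC cells. Its values were 8.65 to 8.90 in SS64 NC cells and 7.32 to 7.47 in SS40 NC cells, against 6.25 to 6.95 in SS tumors.

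Of 33 members tested, 3 differed between the 2 lines over 2-fold, a share no higher than over all genes (12.4% in either direction). Against SS40 NC cells, *Trps1* (-2.52) and *Papss2* (-1.57) were lower and *Chst11* (1.40) higher in SS64 NC cells, where 6.02% of all genes were lower and 6.34% higher. *Trps1* had 5.09, 5.55, 5.31 and 5.29 in SS64 NC cells, against 8.46, 6.75, 8.10 and 8.03 in SS40 NC cells. *Papss2* averaged 4.23 in SS64 NC cells and 5.80 in SS40 NC cells, and *Chst11* 8.82 and 7.42. All 4 probe sets of *Trps1* were lower in SS64 NC cells. The other probe sets of *Papss2* differed by -0.46 and -0.10 and that of *Chst11* by 0.42, and with the mean over probe sets *Papss2* (-0.54) and *Chst11* (0.91) were under 2-fold.

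**Figure D5:**
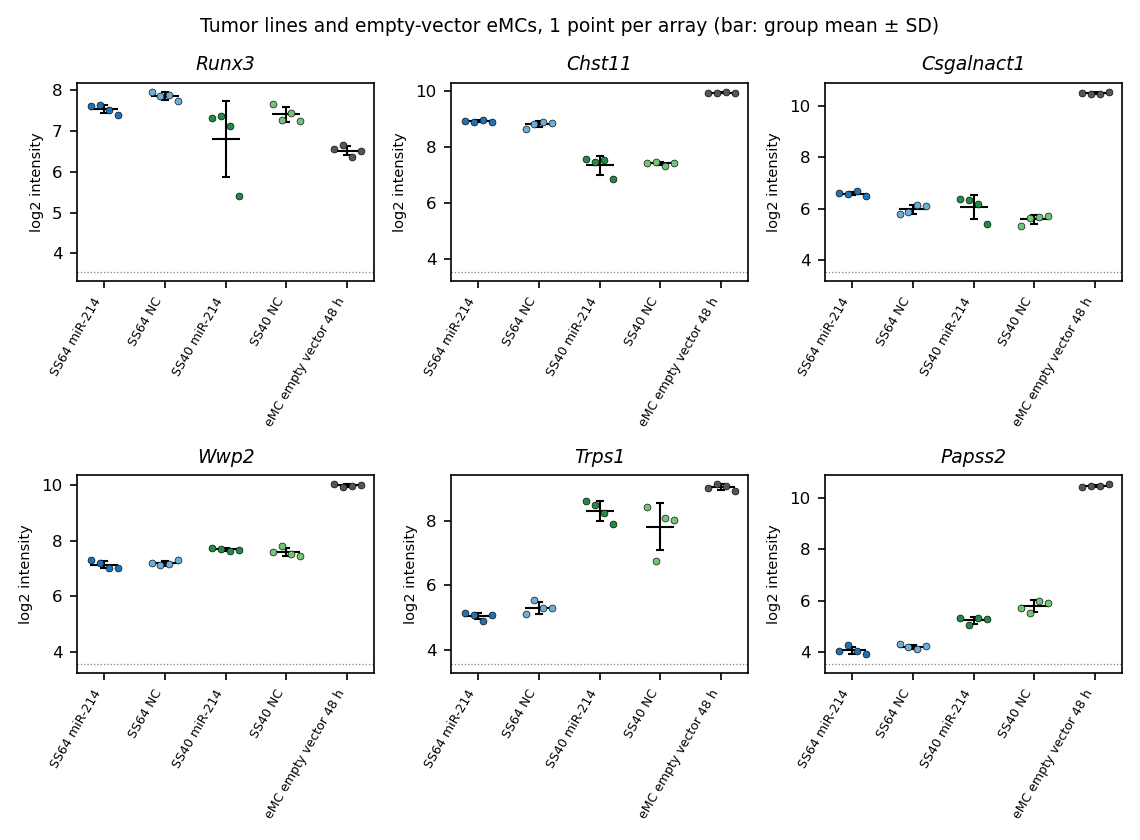
Log2 intensity of 6 genes (y axes, each with its own range) in SS64 and SS40 cells with *miR-214* or NC and in empty-vector eMCs; points are arrays (n = 4 a group), bars the group mean ± SD and the dotted line the lower limit. *Runx3* lies above eMCs in 15 of 16 line arrays, *Trps1* and *Papss2* are lower in SS64 than in SS40 cells, and *Chst11* is higher.

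Transfected *miR-214* gave no cartilage gene past the 2-fold call in either line. In SS40 cells 0 of 32 members were called, where 0.201% of all genes were called in either direction, and 5 members had an unadjusted p under 0.05. In SS64 cells 0 of 30 were called (0.24% over all genes), and 4 had an unadjusted p under 0.05. Without a fold limit, *Csgalnact1* was higher and *Runx3* lower in SS64 cells (4.9% higher and 8.02% lower over all genes). *Csgalnact1* had 6.61, 6.59, 6.68 and 6.50 with *miR-214*, against 5.80, 5.88, 6.13 and 6.10 in NC cells (0.62, SE 0.09, adjusted p = 0.0011), and the groups did not overlap. In SS40 cells it had 6.38, 6.36, 6.20 and 5.40 with *miR-214*, against 5.35 to 5.71 in NC cells (0.49, SE 0.21, adjusted p = 0.51). *Runx3* had 7.62, 7.63, 7.52 and 7.40 with *miR-214* in SS64 cells, against 7.74 to 7.96 in NC cells (-0.32, SE 0.07, adjusted p = 0.014). In SS64 cells the second probe set of *Runx3* differed by -0.07 (limma adjusted p = 0.85). That of *Csgalnact1* differed by 0.64 and did not pass either (limma adjusted p = 0.12). *Trps1*, lower in SS214 than in SS tumors, differed by -0.26 in SS64 cells (adjusted p = 0.19) and by 0.49 in SS40 cells (adjusted p = 0.72). The effects of *miR-214* in the 2 lines did not differ past the threshold for any of 33 members (0.24% over all genes), and 3 had an unadjusted p under 0.05. With the replicate number as a block in SS64 cells, the adjusted p was 0.00061 for *Csgalnact1* and 0.0026 for *Runx3*. In that fit, 0 members were called in either line, and 0 by the methods' t-test with Benjamini-Hochberg adjustment.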

How the data were processed

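The authors deposited intensities for 45141 probe sets on 53 single-channel arrays, on a linear scale of 5.36 to 11034. The submitters' processing notes name MAS5, and the methods name GeneSpring, so the exact summary step is open. Array medians ran from 22.6 to 26.9, and the number of arrays limits the precision. Per probe set, 28898 had 1 gene symbol, 551 several and 15588 none. Probe sets with several or none, and 104 control probe sets, named no gene.

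Intensities under 11.7, the median over arrays of their 20th percentile, were raised to it and log2 was taken. Each comparison was fitted on its own arrays with limma 3.58.1 (R 4.3.3, lmFit and eBayes with a trend) over probe sets above the limit in at least 4 arrays, with Benjamini-Hochberg adjustment over all of them. Calls needed an adjusted p below 0.05 together with a difference of over 2-fold. Genes named are all members and, from each other list, up to 4 called genes with the largest changes; *Sox6* and *Ptch1* were added after their values were seen. The code was checked on simulated data.

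Members and lists were chosen with earlier results of these data known. In SS64 cells same-numbered arrays of *miR-214* and NC deviated together (correlations 0.22 to 0.35), a hint of pairing from the data alone, since only 2 of 4 correlated best with their own number. Values given are from the fit without the block, and the blocked fit is named where it is used. Leaving out SS tumor 5 or SS214 tumor 16 was chosen after seeing the data. Other alternatives changed the scaling, limit, filter, probe set rule, test, block, covariate and samples.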

Additional observations from a re-analysis of the deposited data

Results flagged for a closer look

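In 20 of 230 sets of replicate values tested, 1 sample stood apart from the rest of its group by Dixon's criterion. Chance alone flags about 1 in 20 for normal values that were not raised to a limit. All values here are log2 intensities. The widest gap was *Runx3* in SS40 *miR-214* replicate 4, at 5.3971 against 7.1326 to 7.3723 in the other 3. The same sample was low for *Chst11* (6.8555, others 7.466 to 7.5644) and *Acan* (4.7764), and high for *Matn1* (3.8439). In SS40 *miR-214* replicate 2, *Col9a1* was low (4.2716) and *Col9a2* high (3.5672). In SS64 *miR-214* cells, *Pth1r* was low in replicate 3 (3.9106, others 4.4811 to 4.5927), where *Cytl1* was high (4.5644). *Cnmd* was high in replicate 2 (3.8556) and *Col11a1* in replicate 1 (3.597) of these cells.

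In SS40 NC cells, *Prg4* was high in replicate 2 (3.9566). In SS64 NC cells, *Chad* was low in replicate 4 (4.1345) and *Matn1* high in replicate 1 (3.6116). In empty-vector eMCs, *Col9a1* replicate 2 (12.662, others 12.631 to 12.636), *Fgfr3* replicate 1 (10.014, others 10.068 to 10.079) and *Csgalnact1* replicate 4 (10.546, others 10.484 to 10.491) stood apart by under 0.1. In the mix, *Col9a2* replicate 2 (3.594), *Col10a1* replicate 3 (3.6647), *Matn3* replicate 1 (4.1071) and *Runx3* replicate 1 (4.6171) were high. Many of these lie close to the lower limit of 3.55. Where 3 of 4 arrays were at that limit, the criterion flags the other by construction. This held for *Col9a2* in SS40 *miR-214* cells and the mix, *Col11a1* in SS64 *miR-214* cells and *Col10a1* in the mix.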

How the results depend on the processing

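Of 6311 values of single members under the alternatives, 6280 kept their side of the threshold, 19 lost the call and 12 gained it. Direction was compared only where either fit called the member, and 0 of those values reversed. With the *Gapdh* 3′ to 5′ ratio as a covariate, 2 members were called between SS214 and SS tumors, against 1 without it. With the mean over probe sets, 1 member was called between SS64 NC and SS40 NC cells, against 3 by the brightest probe set (*Papss2* and *Chst11* fell under 2-fold). The cause was not tested. Leaving out 1 array gave 22 to 24 calls at 48 h, 26 to 29 in SS tumors against *SS18-SSX1* eMCs, 30 to 32 in empty-vector eMCs against the mix and 3 to 4 between the lines. Without an empty-vector array, 28 members were called in SS tumors, since members at the lower limit in tumors then fail the filter of 4 arrays. With the replicate number as a block, the counts were 23 at 48 h, 32 in SS40 NC and 33 in SS64 NC cells against empty-vector eMCs, 3 between the lines, 32 in empty-vector eMCs against the mix and 0 for *miR-214* in either line. The block changed no other call count by over 1.5 times. No paired analysis was possible because tumor numbers name single tumors, for the comparisons of tumors. Members near the lower limit have little range in which a further fall could be measured.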
